A study of Homo sapiens with 8 samples.

Results

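The expression of 10 genes of the transforming growth factor beta (TGF-beta) family was examined in ovarian cancer cells with and without BRCA1. The genes were taken by symbol from the 25369 genes measured, and all 10 had counts in each of the 8 libraries. They encode the TGF-beta ligands TGFB1 and TGFB2, the activin subunits INHBA and INHBB, the bone morphogenetic proteins BMP2, BMP4 and BMP7, the distant family member GDF15, and ID1 and ID3, which are target genes of BMP signalling. UWB1.289 is a cell line from a human ovarian carcinoma that lacks functional BRCA1 (BRCA1-null), and the BRCA1+ line is UWB1.289 into which wild-type BRCA1 was transduced. Cells of each line received either DMSO as the vehicle or 0.5 uM entinostat for 24 h, and entinostat is a drug that inhibits the histone deacetylases HDAC1 and HDAC3. This gave 4 groups of 2 libraries: BRCA1+ DMSO, BRCA1+ entinostat, BRCA1-null DMSO and BRCA1-null entinostat. Each genotype was represented by a single line, so that BRCA1 status cannot be told apart from any other difference between the lines. The labels did not say whether the libraries of a group came from separate cultures, and p-values measure the spread between these libraries only.

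Ligands of the TGF-beta family are secreted as dimers and bind pairs of type I and type II receptor kinases. Receptors for TGF-beta and activin phosphorylate SMAD2 and SMAD3, while BMP receptors phosphorylate SMAD1, SMAD5 and SMAD9, and both groups act with SMAD4 at target genes. In epithelial cells TGF-beta is known for arrest of growth and for changes towards a mesenchymal state, and activins are made by ovarian tissue as regulators of the gonads and the pituitary. ID proteins bind basic helix-loop-helix transcription factors and keep them from DNA, and ID1 and ID3 are among the most direct BMP targets known.

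Reads were counted per gene from poly(A) RNA, with 31900158 to 53549893 counts per library. Levels are given as CPM, the counts per library scaled to one size. A floor of 3 counts equalled 0.0552 to 0.0946 CPM, which covers counting error only. BRCA1 itself had 3954 to 5473 counts in the BRCA1+ libraries and 800 to 1218 in the BRCA1-null libraries. Of 10 markers of ovarian epithelial carcinoma, 9 reached 1 CPM in each group, and WT1, at 1 to 20 counts, was the exception. Of 8 stromal markers, COL3A1, DCN and LUM had 0 counts in all libraries, and the summed level ran from 14.1 CPM in BRCA1+ DMSO to 60.9 CPM in BRCA1-null entinostat, nearly all of it COL1A1 and COL1A2. Leukocyte markers summed to 15.3 to 37.5 CPM. The highest was CD68 at 8.58 to 30.9 CPM, while PTPRC had 93 to 214 counts and CD3E 0 to 4. The 4 endothelial markers summed to 9.48 to 16.2 CPM in BRCA1+ DMSO, 27.3 to 38.3 CPM in BRCA1+ entinostat, 36.6 to 54.3 CPM in BRCA1-null DMSO and 75.1 to 92.9 CPM in BRCA1-null entinostat, with CDH5 at 166 to 3513 counts, and their part in the results was not tested. In bulk RNA, fewer cells of a type and less RNA per cell cannot be told apart.

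Measured per gene length as RPKM (CPM divided by the length of the gene in kilobases), levels of the 10 genes in BRCA1+ DMSO cells ran from 68.1 ± 16.1 for INHBB to 0.108 ± 0.0257 for INHBA (SD, n = 2). ID1 followed INHBB at 30.6 RPKM, then TGFB1 at 14.1 and GDF15 at 14, which overlapped between libraries, and then BMP4, ID3, TGFB2, BMP2 and BMP7. BRCA1-null DMSO cells kept INHBB first at 45.6 RPKM, but TGFB1 stood next at 39.1, and INHBA moved from the last place to the sixth at 3.14 RPKM. In that group ID3, BMP2 and TGFB2 lay at 1.25, 1.05 and 0.561 RPKM, where ID3 overlapped BMP2 and BMP2 overlapped TGFB2. With entinostat TGFB1 was the highest of the 10 in BRCA1-null cells, at 45.4 RPKM beside 35.3 for INHBB, without overlap. BMP7 was the lowest in all groups except BRCA1+ DMSO, at 0.157 to 0.326 RPKM in those 3 groups.

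**Figure D1:**
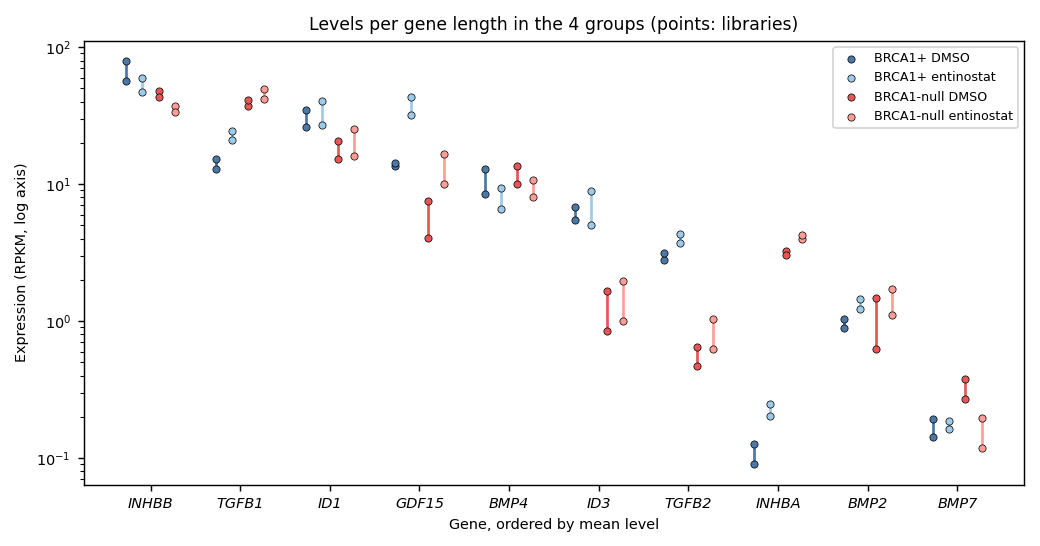
Level of each gene per gene length (RPKM, log axis) in every library, with genes ordered by mean level and the 2 libraries of a group joined by a line. INHBA lies below 0.3 RPKM in the 4 BRCA1+ libraries and above 3 RPKM in the 4 BRCA1-null libraries, while TGFB2 and ID3 lie lower in BRCA1-null cells.

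The first comparison asked how the lines differ without drug. In DMSO, 8 of the 10 genes differed between BRCA1-null and BRCA1+ cells in a quasi-likelihood test (edgeR) with Benjamini-Hochberg adjustment over the 17714 genes tested, where a gene was called at an adjusted p-value under 0.05. The background was high, since 42.2% of all tested genes were called in this comparison, 21.1% as higher and 21% as lower in BRCA1-null cells. TGFB1, BMP7 and INHBA were higher in BRCA1-null cells, while TGFB2, INHBB, GDF15, ID1 and ID3 were lower, and BMP2 and BMP4 were not called. The same 8 genes had libraries that did not overlap between the lines, as did 70.9% of all tested genes. The median log2 fold change of the 10 genes was -0.24, beside 0.012 over all tested genes. Without BRCA1-null DMSO replicate 2 only 4 of the 10 genes were called, namely TGFB1, TGFB2, INHBA and ID3, and over all genes the calls went from 7472 to 5431.

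**Figure D2:**
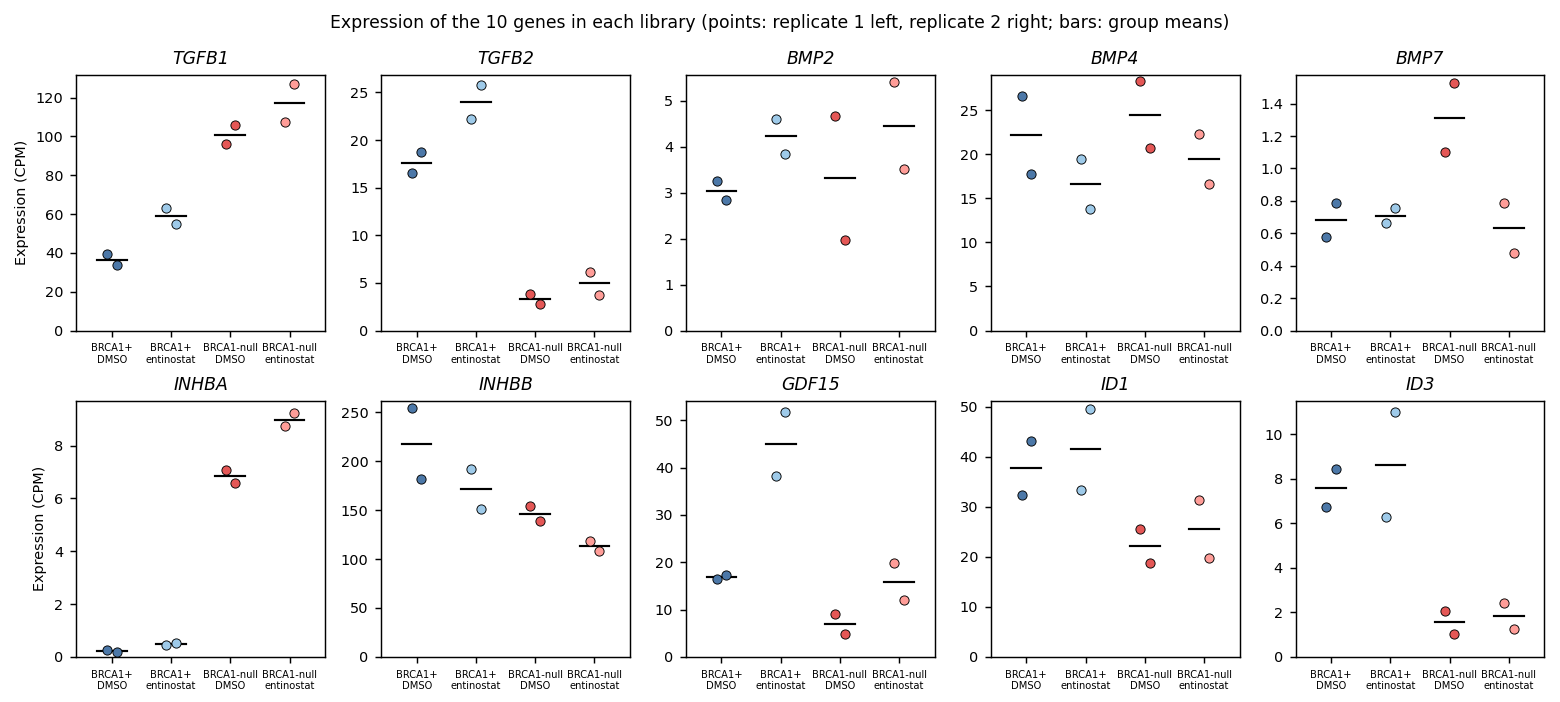
Expression of each gene in CPM (linear axis from 0) in the 8 libraries, where points are libraries and bars are group means. Libraries of both lines are separated for TGFB1, TGFB2, INHBA, INHBB, GDF15, ID1 and ID3 in DMSO and in entinostat, and they overlap for BMP2 and BMP4.

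The 2 TGF-beta ligands differed in opposite directions. TGFB1 (hg19 chr19:41836436-41859838, minus strand), the most widely made TGF-beta, had 39.5 and 33.5 CPM in the BRCA1+ DMSO libraries and 96.2 and 106 CPM in the BRCA1-null DMSO libraries. It was 2.77-fold higher in BRCA1-null cells, a log2 fold change of 1.47 ± 0.12 (SE) with an adjusted p-value of 1.85e-05. TGFB2 (hg19 chr1:218518676-218617961, plus strand), which needs the co-receptor betaglycan for strong binding to its type II receptor, had 16.6 and 18.7 CPM in BRCA1+ and 3.87 and 2.81 CPM in BRCA1-null DMSO libraries. Its level was 5.34-fold lower, a log2 fold change of -2.42 ± 0.21 (adjusted p = 3.38e-05). Both calls held in each of the 16 alternatives tried, where TGFB1 ranged from 1.35 to 1.59 and TGFB2 from -2.63 to -2.19 as log2 fold changes, and the adjusted p-values ran over 1.72e-35 to 3.06e-04 and 8.72e-28 to 5.42e-04. As a share of the summed RPKM of both genes, TGFB2 made up 15.4% and 19.5% in the BRCA1+ DMSO libraries and 1.72% and 1.14% in the BRCA1-null DMSO libraries. An uncharacterised gene on the opposite strand, LOC728463, overlaps TGFB2 and had 2 to 23 counts, and the use of strand in the counting was not given in the sources used here.

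Promoters of the 2 genes differ in base composition, and they are shown because these ligands moved apart. The windows hold the 250 bases before the start site in RefSeq on GRCh38.p14, read 5′ to 3′ on the strand of the gene. Capitals mark 4 motifs searched on both strands: the SMAD element CAGAC, the GC-rich SMAD element GGCGCC, the GC box GGGCGG and the TATA box TATAAA. A GC box can overlap another GC box or a GC-rich SMAD element. The TGFB1 window (chr19:41353923-41354172, minus strand) has 76.8% G or C and 21 CpG, and the TGFB2 window (chr1:218345086-218345335, plus strand) has 50.4% and 11 CpG, beside medians of 58% and 11 CpG over 35116 windows.
TGFB1: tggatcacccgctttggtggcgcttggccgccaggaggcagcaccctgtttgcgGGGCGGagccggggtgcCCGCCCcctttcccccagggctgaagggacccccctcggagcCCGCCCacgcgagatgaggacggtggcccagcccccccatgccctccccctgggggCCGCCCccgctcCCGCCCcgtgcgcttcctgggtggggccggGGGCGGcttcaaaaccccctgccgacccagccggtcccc
TGFB2: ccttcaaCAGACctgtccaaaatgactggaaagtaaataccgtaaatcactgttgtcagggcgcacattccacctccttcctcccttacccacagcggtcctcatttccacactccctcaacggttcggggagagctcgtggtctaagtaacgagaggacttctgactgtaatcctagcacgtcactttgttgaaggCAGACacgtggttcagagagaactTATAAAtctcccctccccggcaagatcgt
TGFB1 held 6 GC boxes, 4 of them on the opposite strand, and no other motif, whereas TGFB2 held 2 SMAD elements, which begin 243 and 53 bases before the start, and a TATA box that begins 29 bases before it. Of all windows, 38% held a SMAD element, 16.4% the GC-rich SMAD element, 42.6% a GC box and 10.7% a TATA box. Windows were found for 8 of the 10 genes, and BMP2 and BMP7 had none.

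The activin subunits also parted. INHBA (hg19 chr7:41728601-41742706, minus strand) encodes the beta A chain of activin A, and it had 11 and 9 counts in BRCA1+ DMSO libraries against 322 and 358 in BRCA1-null DMSO libraries. In CPM these were 0.275 and 0.196 against 7.08 and 6.59, so that INHBA was nearly silent in one line and clearly expressed in the other. The level was 28.9-fold higher in BRCA1-null cells, with a log2 fold change of 4.85 ± 0.24 (adjusted p = 1.91e-06), the largest difference among the 10 genes, and it ranged from 4.62 to 5.10 when single libraries were left out. INHBB (hg19 chr2:121103719-121109383, plus strand) encodes the beta B chain of activin B, and it had 255 and 182 CPM in BRCA1+ and 154 and 139 CPM in BRCA1-null DMSO libraries. Its fall of 1.49-fold (log2 -0.58 ± 0.15, adjusted p = 0.015) was lost without BRCA1+ DMSO replicate 1 (log2 -0.32, adjusted p = 0.0962) or BRCA1-null DMSO replicate 2 (log2 -0.50, adjusted p = 0.0867). Per gene length INHBB remained the more abundant chain in every library. INHBA made up 0.159% of the summed RPKM of both in each BRCA1+ DMSO library and 6.34% and 6.54% in the BRCA1-null DMSO libraries. INHA, the alpha chain that pairs with either beta chain to form inhibin, had 0.264 ± 0.157 CPM in BRCA1+ DMSO and 0.286 ± 0.0925 CPM in BRCA1-null DMSO and was not called. The antisense gene INHBA-AS1 overlaps INHBA and had 6 to 69 counts, and reads of the 2 genes cannot be told apart without strand.

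The INHBA window (GRCh38.p14 chr7:41703091-41703340, minus strand) is shown because this gene differed most. It was poor in G and C, at 42.8% with 1 CpG, and its single motif was a TATA box that begins 11 bases before the start.
INHBA: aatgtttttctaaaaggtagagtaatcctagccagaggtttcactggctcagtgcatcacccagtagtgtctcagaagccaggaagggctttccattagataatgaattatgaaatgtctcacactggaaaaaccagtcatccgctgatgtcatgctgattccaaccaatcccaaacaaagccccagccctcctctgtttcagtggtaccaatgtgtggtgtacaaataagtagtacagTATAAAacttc
The window of INHBB, at 89.6% G or C with 46 CpG, lay at the other end of the range of the members.

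The 3 BMP ligands showed the smallest or least certain differences. BMP2 (hg19 chr20:6748745-6760910, plus strand), an inducer of bone and cartilage, had 3.25 and 2.83 CPM in BRCA1+ and 4.66 and 1.97 CPM in BRCA1-null DMSO libraries. These libraries overlapped, and the log2 fold change of 0.088 ± 0.38 had a 95% interval of -0.76 to 0.94 (adjusted p = 0.874). BMP4 (hg19 chr14:54416455-54423554, minus strand), a close relative that BMP2 resembles in sequence and receptor use, had 26.6 and 17.7 CPM in BRCA1+ and 28.3 and 20.7 CPM in BRCA1-null DMSO libraries. It overlapped likewise, with a log2 fold change of 0.15 ± 0.23 and an interval of -0.38 to 0.67 (adjusted p = 0.648). Intervals of this width leave room for differences in either direction. BMP7 (hg19 chr20:55743809-55841707, minus strand), known for its roles in kidney and eye development, had only 23 and 36 counts in BRCA1+ and 50 and 83 in BRCA1-null DMSO libraries. Its increase of 1.93-fold (log2 0.95 ± 0.31, adjusted p = 0.0361) was the least stable of the 8 calls, since it was lost in 7 of the 16 alternatives, with adjusted p-values of 0.0551 to 0.208. These were the DESeq2 Wald test, the fit to the 2 groups alone, and the fits without either BRCA1+ DMSO library, either BRCA1+ entinostat library or BRCA1-null DMSO replicate 2.

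GDF15 (hg19 chr19:18496968-18499986, plus strand), a secreted stress-induced factor also called macrophage inhibitory cytokine, had 16.4 and 17.2 CPM in BRCA1+ DMSO libraries and 9.12 and 4.86 CPM in BRCA1-null DMSO libraries. The libraries did not overlap, although those of the BRCA1-null line lay 1.87-fold apart. It was 2.45-fold lower in BRCA1-null cells (log2 -1.29 ± 0.31, adjusted p = 0.00856), and the call was lost without BRCA1-null DMSO replicate 2 (log2 -0.88, adjusted p = 0.0585). GFRAL, the receptor of GDF15 in the hindbrain, had 1 to 11 counts in the 8 libraries and did not pass the filter on low counts. The microRNA gene MIR3189 lies within GDF15 on the same strand and had 13 to 103 counts.

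The GDF15 window (GRCh38.p14 chr19:18385908-18386157, plus strand) is shown because this gene was called in all 4 comparisons between groups. It held 3 of the 4 motifs: a SMAD element 125 bases, GC boxes 119 and 70 bases and a TATA box 29 bases before the start.
GDF15: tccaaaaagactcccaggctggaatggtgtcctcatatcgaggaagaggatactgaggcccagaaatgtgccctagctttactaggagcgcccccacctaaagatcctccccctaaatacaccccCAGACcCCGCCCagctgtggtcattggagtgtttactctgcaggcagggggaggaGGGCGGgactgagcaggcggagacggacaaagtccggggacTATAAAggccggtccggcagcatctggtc
G or C made up 58.4% of it, with 9 CpG.

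Both ID genes were lower in BRCA1-null cells. ID1 (hg19 chr20:30193086-30194317, plus strand) had 32.4 and 43.1 CPM in BRCA1+ and 25.6 and 18.9 CPM in BRCA1-null DMSO libraries, and ID3 (hg19 chr1:23884421-23886285, minus strand) had 6.75 and 8.45 against 2.04 and 1.05 CPM. Neither gene overlapped between the lines. ID3 fell 5.06-fold, with a log2 fold change of -2.34 ± 0.38 (adjusted p = 0.00113), and stayed called in the 16 alternatives, whose adjusted p-values ran from 4.35e-10 to 0.0116. ID1 was 1.71-fold lower (log2 -0.78 ± 0.26, adjusted p = 0.0367). The ID1 call was lost with the DESeq2 Wald test (adjusted p = 0.0932) and without BRCA1+ DMSO replicate 2 (log2 -0.55, adjusted p = 0.211) or BRCA1-null DMSO replicate 2 (log2 -0.56, adjusted p = 0.200). The other 2 ID genes, which belonged to the list of further pathway genes, were lower too. ID4 fell by 2.33 on the log2 scale (adjusted p = 2.19e-05), from 16.4 and 21 to 4.29 and 3.27 CPM. ID2, looked at after its values were seen, fell by 1.03 (adjusted p = 0.0156), from 4.48 and 7.82 to 2.73 and 3.31 CPM.

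The 2 ID windows are shown for comparison, since the genes moved in the same direction. The ID1 window (GRCh38.p14 chr20:31605039-31605288, plus strand) held 2 GC boxes and 2 overlapping TATA boxes on opposite strands, while the ID3 window (GRCh38.p14 chr1:23559502-23559751, minus strand) held 1 SMAD element 147 bases before the start.
ID1: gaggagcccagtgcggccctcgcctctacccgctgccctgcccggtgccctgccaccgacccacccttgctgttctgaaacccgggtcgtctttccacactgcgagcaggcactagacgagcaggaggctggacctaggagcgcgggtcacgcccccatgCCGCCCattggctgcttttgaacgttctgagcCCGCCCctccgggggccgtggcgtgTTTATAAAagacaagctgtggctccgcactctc
ID3: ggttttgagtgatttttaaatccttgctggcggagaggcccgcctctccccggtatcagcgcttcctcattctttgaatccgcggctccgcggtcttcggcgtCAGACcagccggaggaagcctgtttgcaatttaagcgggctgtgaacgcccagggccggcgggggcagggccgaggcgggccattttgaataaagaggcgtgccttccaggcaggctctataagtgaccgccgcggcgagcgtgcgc
The windows were alike in composition, with 66% and 62% G or C and 19 and 24 CpG. Over the 10 windows of the 8 genes found, of which BMP4 has 3, SMAD elements were in 5, the GC-rich SMAD element in 2, GC boxes in 6 and TATA boxes in 4. A match is a description of the letters and not a site, and these windows leave out distal elements.

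With entinostat present, the lines were compared again. Under the drug 6 of the 10 genes were called between BRCA1-null and BRCA1+ cells, beside 39.4% of all genes tested, and libraries of 7 did not overlap, beside 69.5% of all genes. TGFB1 (log2 1.00 ± 0.11) and INHBA (4.16 ± 0.21) were higher in BRCA1-null cells, with adjusted p-values of 0.00014 and 1.92e-06. TGFB2 (-2.26 ± 0.20), ID3 (-2.25 ± 0.37), GDF15 (-1.5 ± 0.26) and INHBB (-0.60 ± 0.16) were lower, with adjusted p-values of 3.61e-05, 0.00119, 0.00161 and 0.0141. These 6 genes kept the direction they had in DMSO. ID1 had 33.3 and 49.7 CPM in BRCA1+ and 31.4 and 19.7 CPM in BRCA1-null libraries and just missed the threshold (log2 -0.71 ± 0.26, adjusted p = 0.0532), and it passed in 8 of the 16 alternatives. BMP7 was at -0.16 on the log2 scale, with an interval of -1.03 to 0.71. The INHBB call was lost without BRCA1+ entinostat replicate 1 (adjusted p = 0.0967) or BRCA1-null entinostat replicate 2 (adjusted p = 0.0760).

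**Figure D3:**
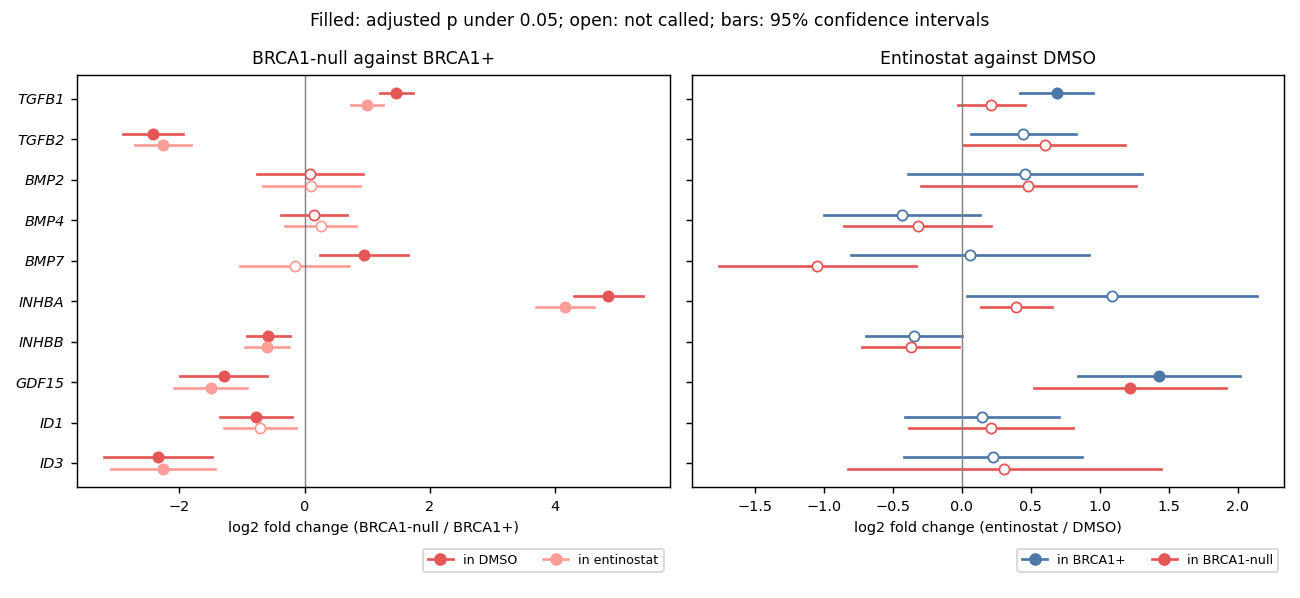
Log2 fold changes with 95% confidence intervals for BRCA1-null against BRCA1+ cells (left) and for entinostat against DMSO (right), with filled points where the adjusted p-value was under 0.05. INHBA, TGFB1, TGFB2, ID3, INHBB and GDF15 are filled for both treatments on the left, and on the right only GDF15 is filled for both lines.

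The remaining comparisons asked how each line responded to entinostat. They share their DMSO libraries with the first comparison, so their values are set side by side without a measure of likeness. In BRCA1+ cells 2 of the 10 genes were called, both higher with entinostat, beside 14.1% of all tested genes (8.15% higher and 6% lower). GDF15 rose from 16.4 and 17.2 to 38.2 and 51.8 CPM, a 2.69-fold increase (log2 1.43 ± 0.26, adjusted p = 0.00844). TGFB1 rose from 39.5 and 33.5 to 63.2 and 54.7 CPM, a 1.61-fold increase (log2 0.69 ± 0.12, adjusted p = 0.0068). Neither overlapped between treatments. Both calls missed the threshold in some fits without 1 library. For GDF15 these were without BRCA1+ DMSO replicate 2 or BRCA1+ entinostat replicate 2, with log2 fold changes of 1.47 and 1.18. For TGFB1 they were without BRCA1+ DMSO replicate 2 or BRCA1+ entinostat replicate 1, at 0.57 and 0.59. Each of these fits left 1 library in a group, and calls over all genes fell as well. Without BRCA1+ DMSO replicate 2 the single call was INHBB, as lower (log2 -0.57, adjusted p = 0.0470). INHBA had 11 and 9 counts in DMSO and 14 and 25 with entinostat, a log2 fold change of 1.09 ± 0.47 whose interval ran from 0.038 to 2.14 (adjusted p = 0.154). For TGFB2, BMP4 and INHBB the log2 fold changes were 0.45, -0.43 and -0.35, with adjusted p-values of 0.111, 0.297 and 0.173. The ID genes gave 0.15 for ID1 and 0.22 for ID3, with intervals of -0.41 to 0.71 and -0.42 to 0.87. Libraries did not overlap for 5 genes, beside 57% of all tested genes, and the median log2 fold change of the 10 was 0.34, beside 0.00041 over all genes.

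In BRCA1-null cells GDF15 was the only one of the 10 genes called with entinostat, beside 10.8% of all tested genes (7.57% higher and 3.19% lower). Its level went from 9.12 and 4.86 to 19.8 and 12 CPM, a 2.33-fold increase (log2 1.22 ± 0.31, adjusted p = 0.0381), and its libraries with entinostat spanned the range of the BRCA1+ DMSO libraries. This call was lost in 6 of the 16 alternatives. Adjusted p-values were 0.0552 with the DESeq2 Wald test, 0.0994 in a fit to the 2 groups alone, 0.0543 and 0.0545 without BRCA1+ DMSO replicate 1 or 2, 0.190 without BRCA1-null DMSO replicate 2 (log2 0.81) and 0.215 without BRCA1-null entinostat replicate 1 (log2 0.80). BMP7 went from 50 and 83 counts to 37 and 20 (log2 -1.05 ± 0.32, adjusted p = 0.0665), and INHBA from 7.08 and 6.59 to 8.72 and 9.24 CPM (log2 0.40 ± 0.12, adjusted p = 0.0594). Both lay close to the threshold without overlap between libraries. TGFB1 (107 and 127 CPM with entinostat) had a log2 fold change of 0.22 ± 0.11 and an adjusted p-value of 0.237. INHBB had a log2 fold change of -0.37 that was not called (adjusted p = 0.164), beside -0.35 in BRCA1+ cells. Libraries of 5 genes did not overlap, beside 54.7% of all tested genes. As a share of the summed RPKM of both activin chains, INHBA reached 9.79% and 11.2% in these cells, and 0.338% and 0.522% in BRCA1+ cells with entinostat.

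Whether the response to entinostat differed between the lines was tested as an interaction. None of the 10 genes was called by edgeR, nor by DESeq2, and 1 of the 10 had an unadjusted p-value under 0.05. That gene was TGFB1, for which the log2 response of BRCA1-null cells minus that of BRCA1+ cells was -0.47 ± 0.16 (unadjusted p = 0.0157, adjusted p = 0.967). Of all 17714 genes, edgeR called 0, or 0%, with 827 at an unadjusted p-value under 0.05, and DESeq2 called 11. The intervals for the 10 genes were wide: for GDF15 the difference was -0.21 with an interval of -1.12 to 0.71, and for BMP7 it was -1.11 with an interval of -2.24 to 0.025. A call in one line alone does not show that the lines differed in their response.

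Chromosomal position was examined next. For each gene the 50 nearest tested genes on its chromosome were taken, in the comparison of lines in DMSO. The median log2 fold change of these neighbours lay between -0.18 and 0.26, while INHBA, at 4.85, lay above all 50 of its neighbours and GDF15, at -1.29, below all 50. TGFB2 lay below 49 of 50 neighbours, whose median was 0.26 in the opposite direction, and TGFB1 lay above all but 3, whose set had a median of -0.090. ID3 and ID1 lay below 47 and 45 of their 50 neighbours. BMP7, INHBB and, by less, ID1 stood in regions that moved the same way. Of the neighbours of BMP7, 27 were called higher and 3 lower, with a median of 0.23, and 10 lay above BMP7 itself. Of those of INHBB, 5 were called higher and 20 lower, with a median of -0.18, and 42 lay above INHBB. Of those of ID1, 3 were called higher and 11 lower, with a median of -0.12. The part of the region in these results was not tested.

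**Figure D4:**
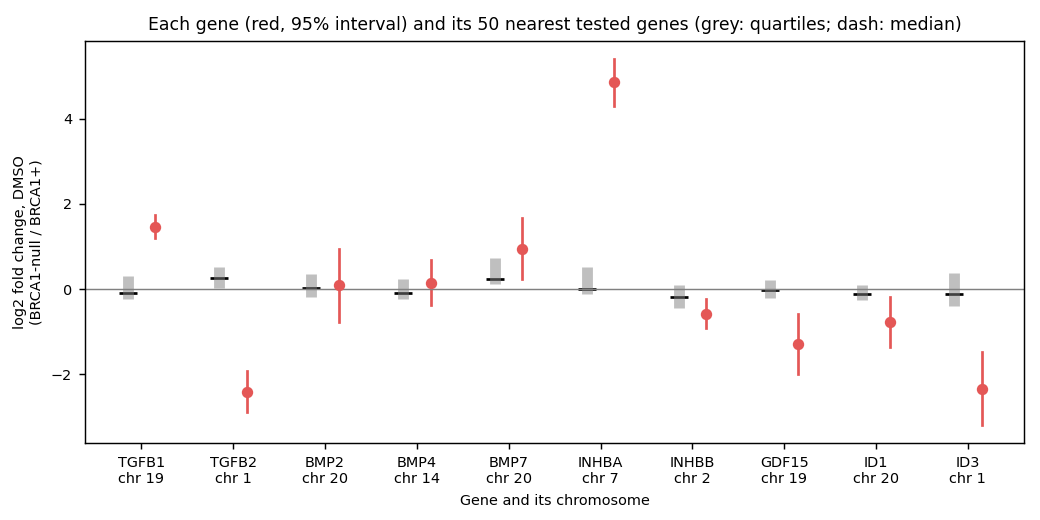
Log2 fold change of BRCA1-null against BRCA1+ cells in DMSO for each gene (red point with its 95% confidence interval) and for its 50 nearest tested genes (grey bar from the first to the third quartile, black dash at the median). INHBA, TGFB1, TGFB2, GDF15 and ID3 lie outside the bars of their neighbours by more than 1 log2 unit. The bars of BMP7, INHBB and, by less, ID1 are shifted the same way as the gene.

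Further genes of the pathway were described from a list of 101, of which 85 were tested. In the comparison of lines in DMSO 49 were called (57.6%, beside the 42.2% of all genes), 22 higher and 27 lower in BRCA1-null cells, with a median log2 fold change of -0.019. Among other ligands 4 of 14 were called. GDF11 was higher (log2 0.27 ± 0.092) and BMP1, a protease named with the BMPs, was lower (-0.91 ± 0.087), with adjusted p-values of 0.0432 and 5.24e-05. Among receptors and co-receptors 9 of 15 were called. ENG, the co-receptor endoglin, was higher (0.67 ± 0.077, adjusted p = 0.000153) and RGMA, a BMP co-receptor, was lower (-1.81 ± 0.36, adjusted p = 0.00332). The type II receptors TGFBR2, for TGF-beta, and BMPR2, for BMPs, named after their values were seen, were lower by log2 fold changes of -1.05 and -0.58 (adjusted p = 2.72e-05 and 4.29e-05). TGFBR2 had 104 and 97.7 CPM in BRCA1-null DMSO libraries against 194 and 224 CPM in BRCA1+ DMSO libraries. The type I receptor TGFBR1 lay the other way, at 17.5 and 17.3 CPM against 14.3 and 14.3 CPM.

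Extracellular regulators were called in 14 of 20 cases between the lines in DMSO, beside 42.2% of all tested genes. CHRDL1, an antagonist that binds BMPs, was higher (log2 1.93 ± 0.30, adjusted p = 0.000801), and FSTL1, a secreted follistatin-like protein, was lower (-1.75 ± 0.084, adjusted p = 1.43e-06). Follistatin itself, FST, which captures activins, was not called (0.20 ± 0.24, adjusted p = 0.531). Of the SMADs and intracellular regulators 9 of 17 were called. SMAD3, which carries TGF-beta and activin signals, was higher at 126 and 103 CPM against 41.8 and 39.5 CPM (log2 1.49 ± 0.11, adjusted p = 1.38e-05), and ZFYVE9, an anchor for receptors and SMADs, was lower (-0.84 ± 0.085, adjusted p = 7.59e-05). SMAD5, which carries BMP signals and was named after its value was seen, was lower by a log2 fold change of -0.70 (adjusted p = 3.68e-05). The other SMADs of this role lay closer between the lines. Mean CPM in BRCA1+ and BRCA1-null DMSO cells was 18.3 and 15.9 for SMAD1 and 58.1 and 52.8 for SMAD2. For SMAD4 it was 44.7 and 49.8, and for SMAD9 1.83 and 1.99.

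Targets and feedback genes were called in 13 of 19 cases, 6 higher and 7 lower, beside the same 42.2% of all tested genes. Among targets named after their values were seen, TGFBI and PMEPA1, both known to be induced by TGF-beta, were higher by log2 fold changes of 2.03 and 1.54 (adjusted p = 0.000247 and 0.00158). PMEPA1 had 446 and 766 CPM in BRCA1-null against 210 and 207 CPM in BRCA1+ DMSO libraries. SMAD6, a feedback inhibitor induced by BMPs, was lower (-1.98, adjusted p = 0.000602), as were ID2 and ID4 above. BAMBI, a further gene of this role, overlapped between the lines, at 1.98 and 2.27 CPM in BRCA1+ and 2.84 and 1.31 CPM in BRCA1-null DMSO libraries. CTGF, another TGF-beta target, was lower (-0.74, adjusted p = 0.00119), and SMAD7, a feedback inhibitor of TGF-beta signalling, was not called (0.20 ± 0.20, adjusted p = 0.446).

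**Figure D5:**
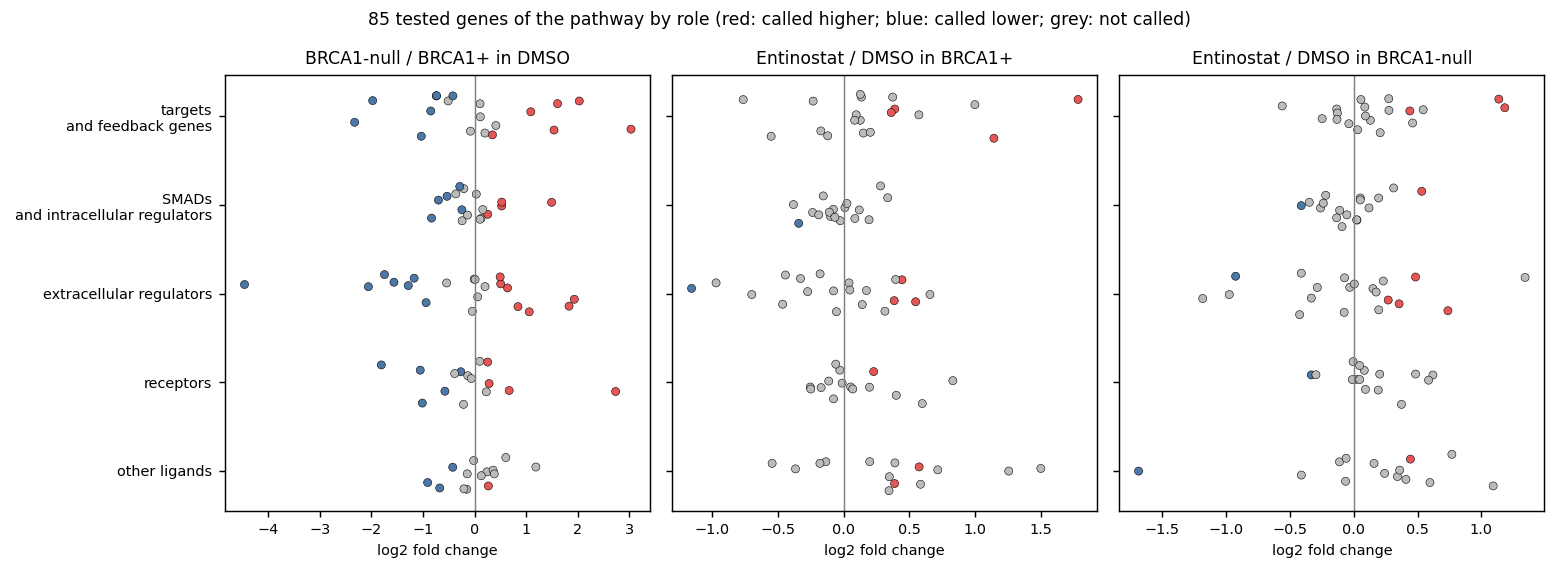
Log2 fold changes of the 85 tested pathway genes other than the 10, by role, for the lines in DMSO and for entinostat in each line, where each point is a gene and colour marks genes called higher or lower. In the left panel called genes of each role lie on both sides of 0, and in the other panels most points are grey.

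With entinostat present, 45 of the 85 pathway genes were called between the lines, 18 higher and 27 lower, beside 39.4% of all tested genes (20.5% higher and 18.9% lower). The named genes included CHRDL1 (log2 2.22), SMAD3 (1.69) and ENG (0.68) as higher, and ID4 (-2.02), FSTL1 (-1.49), BMP1 (-1.14), TGFBR3, which is betaglycan (-1.06), and ZFYVE9 (-0.81) as lower. Entinostat changed 12 of the 85 in BRCA1+ cells (14.1%, beside 14.1% of all genes) and 13 in BRCA1-null cells (15.3%, beside 10.8%). NOG, the BMP antagonist noggin, fell in both lines. Its log2 fold change was -1.16 ± 0.19 for BRCA1+ cells (adjusted p = 0.00555), and for BRCA1-null cells it was -0.92 ± 0.17 (adjusted p = 0.0128). In CPM it went from 60.4 and 41 to 25.8 and 19.9 in BRCA1+ cells and from 71.3 and 71.2 to 34.3 and 40.9 in BRCA1-null cells. SKI, a corepressor of SMADs, was lower in both (-0.34 and -0.41), and GDF11 (0.57 and 0.44) and LTBP4, a binding protein of latent TGF-beta (0.55 and 0.74), were higher in both.

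The other genes named by the rule were called in entinostat as well. COL1A1, a collagen chain and TGF-beta target that also belonged to the stromal markers, rose in both lines. Its log2 fold change was 1.78 ± 0.16 for the BRCA1+ line and 1.14 ± 0.13 for the BRCA1-null line, with adjusted p-values of 0.000418 and 0.00195. SNAI1, a repressor of E-cadherin, likewise rose in both, in the same order by 1.14 and 1.18 with adjusted p-values of 0.0288 and 0.0169. BMPR2 rose in BRCA1+ cells (0.23, adjusted p = 0.023). In BRCA1-null cells SMAD3 (0.53, adjusted p = 0.015) rose and TGFBR1, the type I receptor of TGF-beta (-0.33, adjusted p = 0.0431), fell. The count in BRCA1+ cells was 3 to 14 and that in BRCA1-null cells 3 to 12 when single libraries were left out. The lowest counts came without BRCA1+ entinostat replicate 2 and without BRCA1-null DMSO replicate 2. None of the 85 genes was called for the interaction by edgeR or DESeq2, with 3 at an unadjusted p-value under 0.05.

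Replicates were compared for each of the 10 genes, because several calls were lost when 1 library was left out. In the BRCA1-null line ID3, GDF15, TGFB2, ID1, BMP2, BMP4 and INHBB were higher in replicate 1 than in replicate 2 under both treatments. TGFB1 was higher in replicate 2 under both. The ratio for ID3 was 1.91 in DMSO and 1.92 with entinostat, and for GDF15 it was 1.87 and 1.65, while 2.34 for BMP2 in DMSO was the widest, a spread that 1.68% of tested genes equalled or passed. In the BRCA1+ line ID3, ID1, GDF15, TGFB2 and BMP7 were higher in replicate 2 under both treatments, with ratios for ID3 of 1.25 and 1.75. TGFB1, BMP2, BMP4 and INHBB were higher in replicate 1 under both. INHBA and TGFB1, which had the narrowest spread in BRCA1-null DMSO, differed 1.07-fold and 1.10-fold between replicates.

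The genes whose pattern over the 8 libraries was closest to each member were found among 10404 genes, by the root mean square difference of centred log2 CPM. GPSM1 and P2RX5 lay closest to TGFB1 (0.0987 and 0.110), RTN4R and MVK to INHBB (0.0849 and 0.0884), and CERS4 and SYTL3 to TGFB2 (0.161 and 0.170). ATG7 and PC lay closest to ID1 (0.172 and 0.195). In these unscaled units GDF15 had no gene as near, with OLFML2A and GAMT at 0.330 and 0.340. Its own SD over the libraries was 1.09, beside 0.494 for ID1, so the distances do not rank how well each member was matched.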

How the data were processed

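Poly(A) RNA of 8 libraries was analysed. Per the study's methods, the authors used TopHat 2 for alignment to hg19 and NGSUtils for counting, and the values they deposited are raw counts per gene, with gene position and length, without normalisation. The treatment of strand and of reads with several positions was not given in the sources used here. Groups and replicate numbers came from the sample titles. Counts were tested with edgeR 4.0.16 in R 4.3.3: filterByExpr (minimum count 10) left 17714 genes, TMM (trimmed mean of M values) factors scaled the libraries, and 1 quasi-likelihood fit held a mean per group with 4 residual degrees of freedom. Tests were two-sided, with Benjamini-Hochberg adjustment over all tested genes. CPM used effective library sizes, and RPKM used the gene lengths of the table. Besides all members, pathway genes were named by a rule: per comparison and role, the called gene with the largest rise and the largest fall among those whose mean log2 CPM was 1 or more, without overlap between libraries. A gene that this rule also named is not reported here. Nearest patterns were given for members called at least once whose mean log2 CPM was 3 or more. The members and lists were chosen with earlier results of these data known. Alternatives were DESeq2 1.42.0 (size factors and Wald test), upper-quartile factors, other count filters, the older quasi-likelihood estimate, a replicate block, a fit to the compared groups, other thresholds and the omission of single libraries.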

Additional observations from a re-analysis of the deposited data

How the results depend on the processing

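Of 790 values of the 10 genes under the alternatives, 701 kept their direction and their side of the threshold, 25 lost a call, 18 gained one and 46 changed sign, none of which was a called value. In edgeR fits that left out single libraries, members called ranged from 4 to 8 (lines in DMSO), 5 to 7 (lines in entinostat), 1 to 2 (entinostat in BRCA1+), 0 to 1 (entinostat in BRCA1-null) and 0 to 0 (interaction), and pathway genes called from 38 to 49, 30 to 45, 3 to 14, 3 to 12 and 0 to 0. Calls over all genes fell in the same fits, to as few as 5309, 4529, 679 and 512 in the first 4 comparisons, from 7472, 6973, 2505 and 1906. In BRCA1+ cells 1 member was called without BRCA1+ DMSO replicate 2 (INHBB, not called with all libraries) or either BRCA1+ entinostat library, and 7, 7, 6 and 3 pathway genes without each of the 4 BRCA1+ libraries. In BRCA1-null cells 0 members were called without either BRCA1+ DMSO library, BRCA1-null DMSO replicate 2 or BRCA1-null entinostat replicate 1, and 3 pathway genes without BRCA1-null DMSO replicate 2, 8 without either BRCA1+ entinostat library, and 6 and 7 without BRCA1-null entinostat replicates 1 and 2. Where 1 library was left, it was assumed to vary like the other groups.

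Sign changes on leaving out a library concerned uncalled values. Their log2 ranges were, for the lines in DMSO, -0.60 to 0.62 (BMP2) and -0.12 to 0.46 (BMP4). For the lines in entinostat they were -0.24 to 0.37 (BMP2) and -0.58 to 0.14 (BMP7). For entinostat in BRCA1+ cells they were -0.13 to 0.32 (BMP7), -0.19 to 0.40 (ID1) and -0.29 to 0.53 (ID3). For entinostat in BRCA1-null cells they were -0.051 to 1.17 (BMP2), -0.17 to 0.50 (ID1) and -0.28 to 0.81 (ID3). For the interaction they were -0.27 to 0.46 (TGFB2), -0.51 to 0.70 (BMP2), -0.21 to 0.38 (BMP4), -0.29 to 0.20 (INHBB), -0.63 to 0.26 (GDF15), -0.31 to 0.39 (ID1) and -0.50 to 0.59 (ID3). The BMP2 interaction was also -0.018 with upper-quartile factors, -0.012 with a minimum count of 50, -0.046 with the DESeq2 Wald test, and -0.025 with the older estimate and with the replicate block.

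A further limit of 1 on the absolute log2 fold change left 5 members and 22 pathway genes for the lines in DMSO, 19 pathway genes for the lines in entinostat, 1 member and 3 pathway genes for entinostat in BRCA1+ cells, and 3 pathway genes in BRCA1-null cells, and over all genes 2204, 1863, 518 and 532 in this order of comparisons. A fit to the 2 groups compared called 19 pathway genes for entinostat in BRCA1+ cells, and 0 members and 3 pathway genes in BRCA1-null cells. Over all genes these 2 fits called 2546 and 693, beside 2505 and 1906 in the fit to all libraries. The DESeq2 Wald test called 0 members in BRCA1-null cells, and 1656 over all genes. With the replicate number as a block, 4 members and 24 pathway genes were called for entinostat in BRCA1+ cells (BMP4 and INHBB lower in addition) and 5 members and 24 pathway genes in BRCA1-null cells (BMP4, BMP7, INHBA, INHBB and GDF15), while calls over all genes rose to 4319 and 3641. Deviations of same-numbered libraries correlated at 0.287 between the 2 BRCA1+ groups and at 0.200 between the 2 BRCA1-null groups. Between groups of different lines the correlations were 0.0523 to 0.129. Each group has 2 numbers, and the labels do not say what a number marks. What same-numbered libraries share was therefore not known. Depth limits INHBA in BRCA1+ cells and BMP7 throughout, whose counts lay between 9 and 83. The cause of these changes was not tested.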
